A study of Homo sapiens with 6 samples.

Results

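The metallothionein genes *MT2A*, *MT1E*, *MT1F*, *MT1G*, *MT1X* and *MT1M*, together with *MTF1*, the gene of their metal-sensing transcription factor, were followed through 6 sequencing libraries of Hep G2 cells. They were taken by symbol from the deposited expression list, and all 7 were found, each on 1 line, among 21863 gene symbols. Hep G2 is a line derived from a human liver tumor. The cells had received 5 nM of a dsRNA mimicking *miR-195* or of a dsRNA mimicking *miR-497* and were collected at 24 hours, or had not been transfected, a state whose labels give a time of 0 hours. From each of these 3 conditions 1 total RNA library and 1 Ago2-IP library were sequenced. A mimic therefore cannot be told apart from the transfection and the hours that came with it. Both mimics were compared with the same non-transfected libraries, so the mimic comparisons share their controls.

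Metallothioneins are small cysteine-rich proteins that bind zinc, copper and cadmium. Their genes are switched on by metals, glucocorticoids and oxidative stress, and the liver is one of their main sites of expression. *MTF1* encodes a zinc-finger protein that senses zinc and binds metal response elements in the promoters of metallothionein genes and of the zinc exporter gene *SLC30A1*. Ago2 is the protein that carries a miRNA to its targets, so RNA recovered with Ago2 includes mRNAs held by miRNAs, and a miRNA finds its targets mainly by pairing of its seed with 3′UTRs.

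The mimicked miRNAs are shown because both comparisons rest on their shared seed, bases 2 to 8, which is in capitals. RefSeq places them on the minus strand of chromosome 17 in build GRCh38.p14, *miR-195-5p* at chr17:7017667-7017687 and *miR-497-5p* at chr17:7017979-7017999.
miR-195-5p: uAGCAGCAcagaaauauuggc
miR-497-5p: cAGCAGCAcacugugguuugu

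The DNA word that pairs with the whole seed, TGCTGCT, stood in the canonical 3′UTR of 0 of the 7 genes. Over 19063 coding genes, 21.5% held it. The 3′UTRs of *MT2A*, *MT1F*, *MT1G*, *MT1X* and *MT1M* were 139 to 149 bases long, against a median of 1068 bases over those genes, and that of *MTF1* had 5562 bases. The shorter word GCTGCT, held by 40% of genes, was found 2 times in the 3′UTR of the canonical *MT1E* transcript, which keeps an intron, and 1 time in that of *MTF1*. These 3 places are printed with the word in capitals, on GRCh37: *MT1E* on the plus strand of chromosome 16 at chr16:56660792-56660797 and chr16:56660870-56660875, and *MTF1* on the minus strand of chromosome 1 at chr1:38279279-38279284.
MT1E, first place: ttcttccccagGCTGCTgttcctgctg
MT1E, second place: ggagaagtgcaGCTGCTgtgcctgatg
MTF1: ccacaaacaagGCTGCTcttctaagcc

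The 3′UTRs of the other annotated *MT1E* transcripts held neither word, and coding sequence was not searched. Among transcripts that are not canonical, 1 of *MT2A* and 1 of *MT1F* held TGCTGCT in the annotated 3′UTR 1 time each. The same transcripts held the shorter word GCTGCT 3 times each, its place inside TGCTGCT included. A word match is a description of the sequence and shows no binding.

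On GRCh37 the 6 metallothionein genes lay within chr16:56642496-56718108, a stretch of 75613 bases, *MT1G* on the minus strand and the others on the plus strand. *MTF1* lay on the minus strand at chr1:38275246-38325264. The canonical transcripts of *MT2A*, *MT1F*, *MT1G*, *MT1X* and *MT1M* had 398 to 425 bases in 3 exons, and that of *MT1E* had 746 bases in 2 exons. The median over 18314 coding genes was 3022 bases, and at most 0.464% of them had a shorter transcript than any of the former 5. Their G+C content was 49.3% to 55.6%, against a median of 48.9%, so that *MT1X* stood at the middle of all coding genes and *MT2A* above 70.6% of them. *MTF1* had 7937 bases in 11 exons and a G+C content of 46.6%.

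The genes resemble each other closely enough to matter for reads of 36 bases. Of all 36-base words of each metallothionein transcript, 11% in *MT1F* to 33.3% in *MT1M* occurred elsewhere in the genome, and 30% in *MT1F* to 68.3% in *MT1M* matched a relative when 2 mismatches were allowed. For *MTF1* these shares were 2.63% and 0%. How the authors placed reads that fit several places is not given in the sources used here, so the split of reads among metallothionein genes is uncertain, most of all for *MT1M*.

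Values are RPKM, read numbers corrected for the length of the transcript and for the mapped reads of the library. Numbers of reads were inferred from the steps between RPKM values, and all intervals are 95% intervals of counting error. They hold no variation between cultures, since each condition has 1 library of each kind, and no test between conditions was possible. The steps imply about 24800000 to 31000000 mapped reads per library for total RNA and 10700000 to 16800000 for Ago2-IP. Of 8 hepatocyte genes, all were above 0 in the 3 total RNA libraries, with *TTR* the lowest at 1.52 RPKM in non-transfected cells, and *TTR* was at 0 in 1 Ago2-IP library. *PTPRC*, *HBB*, *COL1A2* and *DCN*, markers of blood cells and fibroblasts, were at 0 in all 6.

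In total RNA the metallothioneins formed a ladder with the same order in all 3 conditions. *MT2A*, the most widely expressed metallothionein, was at 173 RPKM in non-transfected cells, 152 RPKM with *miR-195* and 213 RPKM with *miR-497*. *MT1G*, common in liver, was at 134, 120 and 180 RPKM in the same order, and *MT1E* at 107, 92.7 and 133 RPKM. Every one of these was lowest with *miR-195* and highest with *miR-497*.

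*MT1F* was at 71.4, 55.6 and 82.2 RPKM and *MT1X* at 47.6, 36.4 and 52.4 RPKM. These 5 genes rested on 431 to 2760 reads per library, and each neighbour in the order from *MT2A* through *MT1G*, *MT1E* and *MT1F* to *MT1X* differed beyond counting error in all 3 libraries, by 1.18-fold at the least. *MT1M* was at 0.827, 0.775 and 0.734 RPKM, from 9, 10 and 10 reads, the lowest of the 7. *MTF1* was at 2.27, 2.50 and 2.37 RPKM from 447 to 585 reads. The summed RPKM of the 6 metallothioneins was 534, 458 and 661.

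In the Ago2-IP libraries the deposited RPKM were mostly lower and the order was less clear. *MT2A* was at 36.6 RPKM in non-transfected cells, 167 RPKM with *miR-195* and 17.9 RPKM with *miR-497*, from 258, 952 and 80 reads. *MT1E* was at 33.0, 117 and 18.2 RPKM, from 281, 809 and 98 reads. Both were highest with *miR-195*, where their RPKM as deposited was near that in total RNA. RPKM of both kinds of library have no common scale, so such closeness depends on the scaling.

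*MT1G* was at 20.4, 45.1 and 12.8 RPKM, *MT1F* at 7.81, 23.1 and 7.02 RPKM, and *MT1X* at 6.62, 15.1 and 5.81 RPKM. All 3 were again highest with *miR-195*, though their RPKM as deposited stayed far below that in total RNA. *MT1M* had 2, 2 and 0 Ago2-IP reads, which is under the 3 reads taken as the least that gives a fold. No Ago2-IP fold is therefore given for it here, and the counts and medians of Ago2-IP ratios leave it out. Only the closing account of the processing includes it, with values from 2 Ago2-IP reads per library.

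*MTF1* differed beyond counting error in deposited RPKM between Ago2-IP and total RNA only with *miR-497*. That difference depended on scale, since the log2 ratio of *MTF1* turned from −0.67 to 1.34 when libraries were scaled by their median RPKM. Its Ago2-IP level of 2.36 RPKM in non-transfected cells, 2.68 RPKM with *miR-195* and 1.48 RPKM with *miR-497* stood beside total RNA levels of 2.27, 2.50 and 2.37 RPKM. In the Ago2-IP libraries *MT2A* and *MT1E* did not differ beyond counting error in non-transfected cells or with *miR-497*, with ratios of 1.11 (0.933 to 1.32) and 0.986 (0.724 to 1.34). *MT1F* and *MT1X* did not differ in these libraries either, with ratios of 1.18 (0.786 to 1.78) and 1.21 (0.698 to 2.12).

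**Figure D1:**
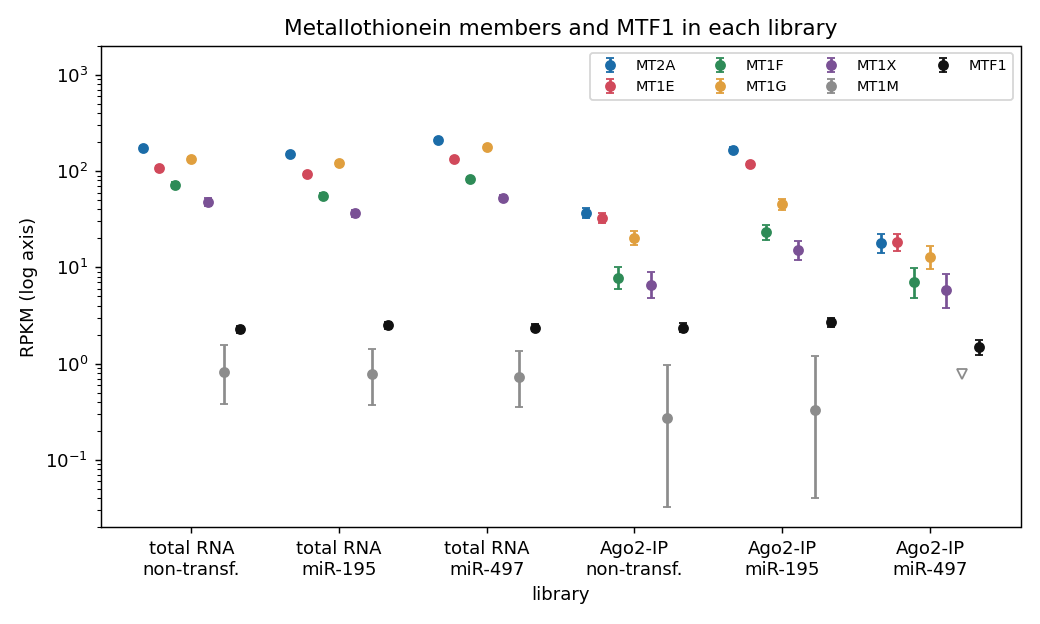
RPKM on a log axis of the 7 genes in each of the 6 libraries, 1 point per gene and library, with bars for 95% counting intervals; the open triangle is the upper limit for MT1M, which had 0 reads with miR-497 in Ago2-IP. In total RNA the 5 abundant metallothioneins keep their order, while in Ago2-IP MT2A and MT1E stand at 167 and 117 RPKM with miR-195 and at 17.9 and 18.2 RPKM with miR-497.

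In total RNA with *miR-195*, all 6 metallothioneins were lower than in non-transfected cells, by less than 2-fold. The ratios were 0.878 (0.822 to 0.937) for *MT2A*, 0.867 (0.803 to 0.935) for *MT1E* and 0.900 (0.834 to 0.972) for *MT1G*. They were 0.778 (0.702 to 0.862) for *MT1F*, 0.763 (0.668 to 0.871) for *MT1X* and 0.937 (0.342 to 2.60) for *MT1M*. Counting error thus leaves 5 of the 6 below 1. *MTF1* was at 1.10 (0.974 to 1.25) times its non-transfected level. Over 14740 genes the median ratio was 1.01, and 0 of the 7 genes passed 2-fold in either direction, where 5.81% of all genes were at least 2-fold higher and 3.2% at least 2-fold lower.

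With *miR-497* the 5 abundant metallothioneins were above their non-transfected level, *MT1X* within counting error. The ratios were 1.23 (1.16 to 1.30) for *MT2A*, 1.24 (1.16 to 1.33) for *MT1E*, 1.34 (1.25 to 1.44) for *MT1G* and 1.15 (1.05 to 1.26) for *MT1F*. *MT1X* was at 1.10 (0.975 to 1.24), *MT1M* at 0.888 (0.324 to 2.47) and *MTF1* at 1.04 (0.921 to 1.18), and the intervals of these 3 include 1. Again 0 of 7 passed 2-fold, where 6.67% of 14768 genes were at least 2-fold higher and 2.11% at least 2-fold lower, and the median ratio over all genes was 1.07.

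Set directly against each other, the total RNA libraries gave *miR-195* to *miR-497* ratios of 0.670 to 0.715 for the 5 abundant metallothioneins. Each interval lay below the median of all genes, 0.951, and 0 of the 10 pairs among these 5 genes differed from each other beyond counting error. *MTF1* had a ratio of 1.06 (0.941 to 1.19). The members at least 2-fold lower were 0 of 7, where 3.64% of 15042 genes were.

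Short transcripts as a class also differed between these libraries. Coding genes with canonical transcripts of up to 600 bases and at least 1 RPKM had a median total RNA log2 change of 0.26 with *miR-497* (124 genes), beside a median of 0.25 for the 6 metallothioneins and −0.07 for 4022 genes with transcripts over 4000 bases. With *miR-195* the same short class had a median of 0.04 and the metallothioneins a median of −0.20. The part of transcript length in these differences was not tested.

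In Ago2-IP with *miR-195* the metallothioneins were higher than in non-transfected cells, and the size of the difference varied between genes. *MT2A* was 4.56-fold higher (3.97 to 5.25), *MT1E* 3.56-fold (3.10 to 4.09) and *MT1F* 2.96-fold (2.17 to 4.10). *MT1X* was 2.28-fold higher (1.57 to 3.35) and *MT1G* 2.21-fold (1.78 to 2.74). *MTF1* was at 1.14 times its non-transfected level (0.964 to 1.33), a direction that turned when libraries were scaled by their median RPKM. The median of all 14291 genes was itself 1.39-fold higher, so the log2 changes relative to that median were 1.71 for *MT2A*, 1.36 for *MT1E*, 1.09 for *MT1F*, 0.71 for *MT1X*, 0.67 for *MT1G* and −0.29 for *MTF1*.

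At least 2-fold higher were 5 of the 6 genes other than *MT1M*, where 23.7% of all genes were and 2.58% were at least 2-fold lower. When each library was scaled by its median RPKM, 3 of the 6 were still at least 2-fold higher, *MT2A*, *MT1E* and *MT1F*, where 9.05% of all genes were. *MT2A* lay above 97.2% of all genes in this comparison, *MT1E* above 94.5% and *MT1G* above 81.3%.

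With *miR-497* the Ago2-IP levels were lower, although for *MT1F* and *MT1X* the direction turned when libraries were scaled by their median RPKM. The ratio to non-transfected cells was 0.490 (0.376 to 0.632) for *MT2A*, 0.551 (0.433 to 0.696) for *MT1E* and 0.627 (0.449 to 0.866) for *MT1G*. It was 0.899 (0.568 to 1.40) for *MT1F* and 0.878 (0.516 to 1.46) for *MT1X*, from 33 and 25 reads with the mimic, and 0.628 (0.507 to 0.774) for *MTF1*. The median ratio over all genes was itself 0.855. The intervals of *MT2A*, *MT1E* and *MTF1* lay below that median, and those of *MT1G*, *MT1F* and *MT1X* included it. Of the 6 genes with a value above 0 in both libraries, 1 was at least 2-fold lower, *MT2A*, where 6.27% of 13866 genes were and 3.48% were at least 2-fold higher. After scaling by the median RPKM none of the 6 was at least 2-fold lower, and with a pseudocount of 1 none was either.

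**Figure D2:**
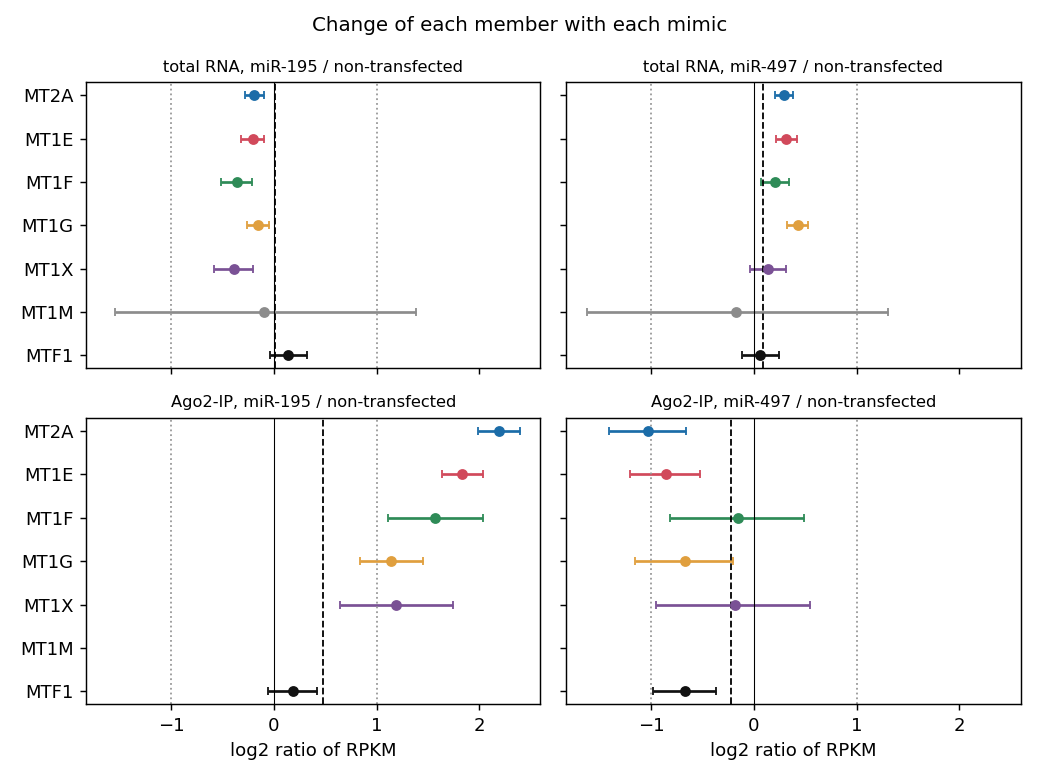
The log2 ratio of RPKM with each mimic to non-transfected cells for each of the 7 genes, in total RNA above and in Ago2-IP below, with bars for 95% counting intervals, dashed lines for the median of all genes and dotted lines at 2-fold; MT1M is left out of the Ago2-IP panels because of its 2 or fewer reads. In Ago2-IP with miR-195, MT2A reaches 2.19 and MTF1 0.18, while with miR-497 MT2A is at −1.03 and MTF1 at −0.67.

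Between the Ago2-IP libraries of the mimics, *MT2A* was 9.31-fold higher with *miR-195* than with *miR-497* (7.41 to 11.8) and *MT1E* 6.46-fold higher (5.23 to 8.05). The others were 3.52-fold (*MT1G*), 3.30-fold (*MT1F*) and 2.60-fold higher (*MT1X*), and *MTF1* was 1.81-fold higher (1.46 to 2.24). The median of all genes was 1.59-fold higher, and 5 of the 6 genes with a value in both were at least 2-fold higher, where 35.3% of 13992 genes were. Short coding genes of at least 1 RPKM, the metallothionein family left out, were higher as well. With canonical transcripts of up to 600 bases their median was 2.77-fold (120 genes), and 76.7% were at least 2-fold higher. At 601 to 1000 bases the median was 2.35-fold (336 genes), with 60.1% at least 2-fold higher. The part of length was not tested. The mimics share their seed, and these libraries differ by the mimic and by whatever separates single libraries.

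The unequal change inside the family does not depend on any scaling between libraries, because it can be read as ratios within 1 library. In total RNA *MT2A* was 1.62 times *MT1E* in non-transfected cells, 1.64 times with *miR-195* and 1.60 times with *miR-497*. In Ago2-IP the same ratio was 1.11, 1.42 and 0.986. The ratio of *MT2A* to *MT1G* was 1.30, 1.26 and 1.18 in total RNA, and 1.79 (1.45 to 2.22), 3.70 (3.21 to 4.28) and 1.40 (0.979 to 2.02) in Ago2-IP. Thus *MT2A* gained on *MT1G* by 2.07-fold (1.61 to 2.65) in Ago2-IP between non-transfected and *miR-195* cells, whereas in total RNA the same step was 0.975-fold (0.883 to 1.08).

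Of the 10 pairs among the 5 abundant metallothioneins, 6 differed beyond counting error in their Ago2-IP change with *miR-195* and 3 did in their total RNA change. Each of those 6 pairs had *MT2A* or *MT1E* as its higher member. *MT1F*, *MT1G* and *MT1X* did not differ from one another, with differences in log2 change of 0.42 (−0.11 to 0.96) between *MT1F* and *MT1G* and −0.05 (−0.65 to 0.56) between *MT1G* and *MT1X*. *MT2A* and *MT1E* together made up 52.3% to 53.5% of the summed metallothionein RPKM in the total RNA libraries. In the Ago2-IP libraries they made up 66.5% without transfection, 77.3% after *miR-195* and 58.5% after *miR-497*. How much of this follows from reads shared among these genes was not tested.

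**Figure D3:**
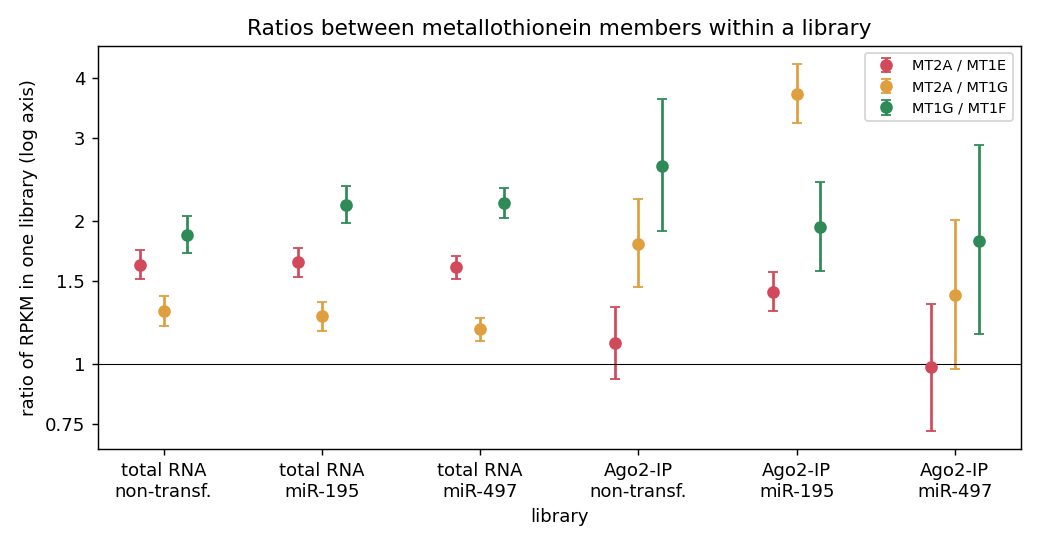
Ratios of RPKM between pairs of metallothionein genes within each of the 6 libraries on a log axis, with bars for 95% counting intervals. MT2A to MT1G lies between 1.18 and 1.30 in total RNA, and the Ago2-IP library of miR-195 has 3.70, while MT1G to MT1F lies between 1.82 and 2.61 in all 6.

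Recovery of each RNA with Ago2 was described by the ratio of Ago2-IP to total RNA. The paper used less input RNA for Ago2-IP libraries than for total RNA libraries. It also reports preparation with or without poly-A selection and does not state which libraries had it. The part of preparation was not tested, and the ratio, without absolute meaning across libraries, was read against the other genes. In non-transfected cells it was 0.211 for *MT2A*, 0.309 for *MT1E*, 0.153 for *MT1G*, 0.139 for *MT1X* and 0.109 for *MT1F*, against a median of 0.326 over 14101 genes. *MTF1* had a ratio of 1.04 (0.900 to 1.21), above 86.5% of genes. At least 2-fold lower in Ago2-IP than in total RNA were 5 of the 6 genes other than *MT1M*, where 69.1% of all genes were.

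With *miR-195* the ratio was 1.10 (1.01 to 1.19) for *MT2A* and 1.27 (1.16 to 1.38) for *MT1E*, above 84.5% and 86.7% of genes, and 0.374 to 0.417 for *MT1G*, *MT1X* and *MT1F*. It was 1.07 (0.928 to 1.24) for *MTF1*. Here 3 of the 6 were at least 2-fold lower, where 53.7% of 14587 genes were. With *miR-497* the ratio was 0.137 for *MT1E*, 0.111 for *MT1X*, 0.0854 for *MT1F*, 0.0843 for *MT2A*, 0.0713 for *MT1G* and 0.627 for *MTF1*, so that 5 of 6 were at least 2-fold lower, where 73.1% of 14000 genes were. In non-transfected cells *MT2A* had lain above 30.1% and *MT1E* above 47.5% of genes, and *MTF1* lay above at least 78.8% of genes in all 3 conditions.

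The fold enrichment score compares the Ago2-IP to total RNA ratio with a mimic to that without transfection. For *miR-195* it was 5.20 (4.46 to 6.05) for *MT2A*, 4.10 (3.51 to 4.79) for *MT1E* and 3.81 (2.76 to 5.26) for *MT1F*. It was 2.99 (2.03 to 4.39) for *MT1X*, 2.45 (1.96 to 3.07) for *MT1G* and 1.03 (0.841 to 1.26) for *MTF1*, against a median of 1.38 over 13749 genes. Scores of at least 2 were held by 5 of the 6 genes, where 20.4% of all genes had one. After scaling by the median RPKM they were held by 4 of the 6, without *MT1G*, where 7.98% of all genes had one.

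For *miR-497* the scores were 0.399 (0.308 to 0.516) for *MT2A*, 0.443 (0.348 to 0.563) for *MT1E* and 0.467 (0.338 to 0.645) for *MT1G*, the 3 of 6 genes with scores of 0.5 or less, where 16.3% of 13430 genes had one. *MT1F* and *MT1X* had scores of 0.781 (0.504 to 1.21) and 0.799 (0.483 to 1.32), and *MTF1* 0.602 (0.473 to 0.765), against a median of 0.824. After scaling by the median RPKM, 0 of the 6 had scores of 0.5 or less, where 8.39% of all genes had one, and after scaling by the 75th percentile 1 had, *MT2A*, where 10.3% of all genes had one.

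The metallothioneins are among the shortest transcripts, and the Ago2-IP change with *miR-195* varied with transcript length over all genes. Coding genes of at least 1 RPKM with canonical transcripts of up to 600 bases, the metallothionein family left out, had a median log2 change of 1.05 (123 genes), and 54.5% of them were at least 2-fold higher. The median was 0.95 at 601 to 1000 bases (373 genes), 0.67 at 1001 to 2000 bases, 0.50 at 2001 to 4000 bases and 0.30 above 4000 bases, where 8.13% were at least 2-fold higher. *MT1G* and *MT1X*, at 1.14 and 1.19, were close to the median of their length class, and *MTF1*, at 0.18, was close to that of its own.

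Among the 496 short genes, those with up to 1000 bases, *MT2A* was above 97.2%, *MT1E* above 95.6% and *MT1F* above 88.7%, while *MT1X* was above 65.5% and *MT1G* above 62.7%. The Ago2-IP to total RNA ratio followed length as well. In non-transfected cells its log2 median was −3.45 for transcripts of up to 600 bases and −1.36 above 4000 bases, so *MT1F* at −3.19 was above the median of the short class, and *MT1X* at −2.85, *MT1G* at −2.71 and *MT2A* at −2.24 were above its upper quartile, −2.89. With *miR-195* the log2 ratio of *MT2A*, 0.13, stood beside a median of −2.20 and an upper quartile of −1.58 in the same class. Length was described here and its part in the results was not tested.

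**Figure D4:**
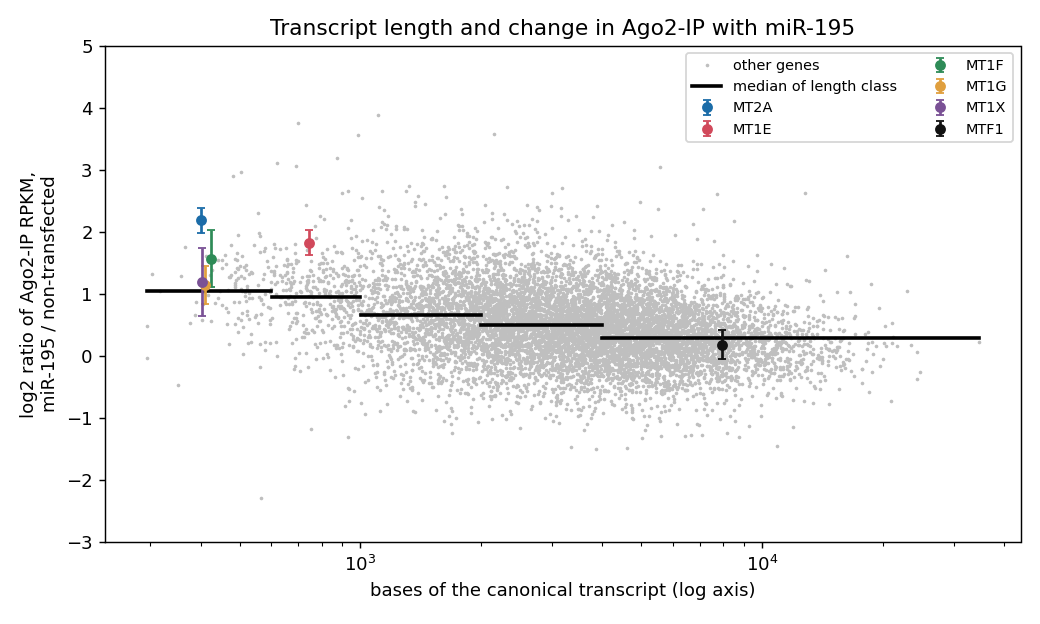
The log2 ratio of Ago2-IP RPKM with miR-195 to non-transfected cells against the bases of the canonical transcript on a log axis, 1 grey dot per coding gene of at least 1 RPKM, with black lines for the medians of 5 length classes and coloured points with 95% counting intervals for the members other than MT1M. MT1G and MT1X lie near the median of 1.05 of the shortest class, MT2A and MT1E lie above 97.2% and 95.6% of genes with up to 1000 bases, and MTF1 lies near the median of 0.30 of the longest class.

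The other metallothionein genes of the cluster are shown for completeness. *MT1H* was at 27.1, 19.9 and 33.0 RPKM in total RNA of non-transfected, *miR-195* and *miR-497* cells and at 2.84, 8.88 and 2.60 RPKM in Ago2-IP. Its Ago2-IP change with *miR-195* was 3.12-fold (1.80 to 5.62), from 19 and 48 reads. *MT1A* was at 5.31, 4.65 and 7.42 RPKM in total RNA and had 3 to 5 Ago2-IP reads per library. Both were lowest with *miR-195* and highest with *miR-497* in total RNA, the same order as the abundant members. *MT1B*, *MT1L* and *MT1DP* had at most 5 reads in any library. *MT3*, a brain metallothionein, *MT4*, found in stratified epithelia, and the pseudogenes *MT1IP* and *MT1JP* were listed at 0 in all 6 libraries.

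The promoters are shown because MTF1 binds metal response elements in metallothionein promoters. Their part in the total RNA changes was not tested. Of the 7 genes, 3 were matched to RefSeq promoters on GRCh38.p14, *MT2A*, *MT1X* and *MTF1*. The core of the metal response element was searched as the words TGCACNC and TGCGCNC on both strands, from 250 bases before the start site to 50 after it, with overlapping matches counted separately. *MT2A* held 8 matches, *MT1X* 4 and *MTF1* 0. Of 35116 promoters, 29.6% held at least 1 match, 0.601% at least 4 and 0.0199% at least 8.

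The 250 bases before the start are printed for *MT2A*, chr16:56608334-56608583, and *MT1X*, chr16:56682220-56682469, both on the plus strand, with the matched words in capitals. A word in capitals that begins with G and ends with GTGCA is a match on the opposite strand.
MT2A promoter: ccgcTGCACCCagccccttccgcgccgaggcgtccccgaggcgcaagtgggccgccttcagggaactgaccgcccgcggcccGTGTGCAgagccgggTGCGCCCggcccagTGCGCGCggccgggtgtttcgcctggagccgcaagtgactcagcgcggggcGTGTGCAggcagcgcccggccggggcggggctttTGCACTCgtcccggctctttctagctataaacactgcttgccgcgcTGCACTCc
MT1X promoter: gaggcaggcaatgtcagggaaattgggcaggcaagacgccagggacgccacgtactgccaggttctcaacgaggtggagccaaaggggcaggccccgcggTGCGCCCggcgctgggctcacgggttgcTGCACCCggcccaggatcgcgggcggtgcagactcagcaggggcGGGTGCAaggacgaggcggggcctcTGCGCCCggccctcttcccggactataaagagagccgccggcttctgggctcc

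*MT1H* also held 8 matches, *MT1B* and *MT4* 3 each, which 2.3% of promoters reach, and *SLC30A1* 2. *MT2A* and *MT1H* both have a match that begins at −8 and *MT1X*, *MT1H* and *MT1B* one that begins at −53. *MT4*, with 3 matches, was at 0 in every library. A match describes the letters and shows no binding of MTF1.

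**Figure D5:**
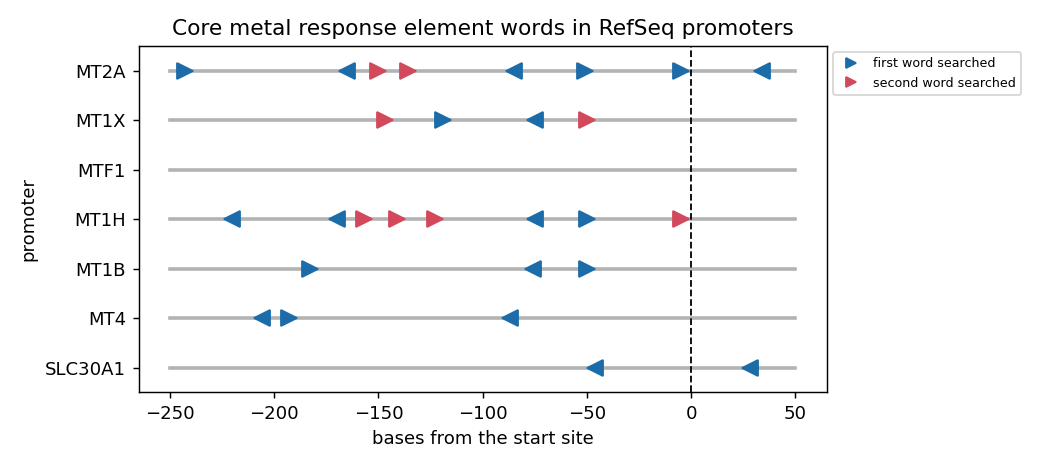
Places of the words TGCACNC (blue) and TGCGCNC (red) in the RefSeq promoters of 7 genes, as bases from the start site (dashed line), with arrowheads pointing right for the strand of the gene and left for the opposite strand. MT2A and MT1H hold 8 words each, MT1X 4, MT1B and MT4 3 each, SLC30A1 2 and MTF1 0.

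*SLC30A1*, the zinc exporter gene that MTF1 also controls, was at 24.4, 22.0 and 21.4 RPKM in total RNA and 4.98, 7.24 and 4.51 RPKM in Ago2-IP, in the order non-transfected, *miR-195* and *miR-497*. Unlike the 5 abundant metallothioneins, *SLC30A1* was not highest with *miR-497* in total RNA. Of the 10 zinc exporter genes of the SLC30 family, 9 had values in total RNA with each mimic. Of these 0 were at least 2-fold higher and 2 were at least 2-fold lower, *SLC30A10* and *SLC30A4*, both under 1 RPKM. *SLC30A4* had 4, 2 and 1 total RNA reads in the same order of conditions. Its folds thus fall under the floor of 3 reads applied to *MT1M*. Among all genes, the *miR-195* comparison had 5.81% at least 2-fold higher and 3.2% at least 2-fold lower. For *miR-497* these shares were 6.67% and 2.11%. The total RNA counts of the lists below stand beside the same shares. Only 5 of the SLC30 genes had at least 1 RPKM in the libraries compared. Of these *SLC30A7* (1.37-fold, 1.28 to 1.47) and *SLC30A9* (1.15-fold, 1.09 to 1.22) were the highest with *miR-195*. *SLC30A6* (0.792-fold, 0.752 to 0.835) and *SLC30A5* (0.861-fold, 0.810 to 0.916) were the lowest. The same 4 genes were the highest and the lowest with *miR-497*, from 1.08-fold for *SLC30A7* to 0.782-fold for *SLC30A5*. There *SLC30A9* was at 0.998-fold. With 4 of 5 genes named, this recurrence was nearly fixed in advance.

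Of the 14 zinc importer genes of the SLC39 family, 12 had values in total RNA and 0 passed 2-fold with either mimic. *SLC39A13* was the highest with *miR-195* at 1.69-fold (1.39 to 2.07) and with *miR-497* at 1.93-fold (1.59 to 2.35), and *SLC39A10* the lowest at 0.671-fold (0.620 to 0.725) and 0.643-fold (0.595 to 0.695). The second highest was *SLC39A11* (1.17-fold) with *miR-195* and *SLC39A4* (1.75-fold) with *miR-497*. The second lowest was *SLC39A1* (0.682-fold) with *miR-195* and *SLC39A9* (0.792-fold) with *miR-497*.

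Of 11 copper-handling genes, 0 passed 2-fold in total RNA with either mimic. With *miR-195* the copper chaperone genes *ATOX1* (0.646-fold, 0.574 to 0.726) and *COX17* (0.687-fold, 0.546 to 0.863) were the lowest and the copper transporter genes *SLC31A1* (1.08-fold) and *SLC31A2* (1.06-fold) the highest. With *miR-497* the highest were *SCO2* (1.49-fold, 1.30 to 1.72) and *CCS* (1.48-fold, 1.24 to 1.75), and the lowest *ATP7A* (0.745-fold) and *ATOX1* (0.958-fold, 0.863 to 1.06).

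Of 14 genes of oxidative and heavy metal stress, 0 were at least 2-fold higher in total RNA and 2 were at least 2-fold lower with each mimic, the heat shock genes *HSPA1A* and *HSPA1B*, which are near-identical copies, so the split of their reads is uncertain. *HMOX1*, which encodes heme oxygenase and is induced by cadmium and oxidative stress, was the highest with both mimics, at 1.5-fold (1.42 to 1.59) with *miR-195* and 1.72-fold (1.63 to 1.82) with *miR-497*. *HSF1*, the heat shock transcription factor gene, was next at 1.18-fold and 1.62-fold. The lowest with *miR-195* was *HSPA1B* (0.282-fold), and with *miR-497* the lowest were *HSPA1B* (0.464-fold) and *NFE2L2* (0.765-fold, 0.745 to 0.787), the gene of a main regulator of the oxidative stress response. With *miR-195* *HMOX1* was therefore higher where the metallothioneins were lower.

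Of 8 genes of the glucocorticoid response, 7 had values and 0 passed 2-fold in total RNA. *NR3C1*, which encodes the glucocorticoid receptor, was the lowest with *miR-497* at 0.559-fold (0.522 to 0.599), from 10.5 to 5.88 RPKM, and *SGK1* next at 0.743-fold. With *miR-195* the lowest were *FKBP5* (0.716-fold) and *SGK1* (0.848-fold). *TAT* and *DUSP1* were the highest with both, *TAT* at 1.63-fold and 1.32-fold and *DUSP1* at 1.25-fold and 1.07-fold.

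In Ago2-IP with *miR-195* the genes at least 2-fold higher were 2 of 8 SLC30 genes, 6 of 12 SLC39 genes, 4 of 10 copper genes, 7 of 14 stress genes and 3 of 7 glucocorticoid genes, beside the 23.7% of all genes given above. At least 2-fold lower was 1 SLC30 gene, *SLC30A10*, from 10 reads in non-transfected cells and 3 with *miR-195*. Among genes of at least 1 RPKM in both libraries the counts were 1 of 5, 3 of 9, 3 of 8, 6 of 13 and 1 of 4. The median log2 changes of the lists were 0.29, 1.01, 0.64, 0.96 and 0.31, beside 0.48 over all genes and 1.57 for the 5 abundant metallothioneins.

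The genes whose pattern over the 6 libraries was most like the median of the 5 abundant metallothioneins were *CLN3*, *CAMK1*, *ZCCHC3*, *APH1A* and *GSK3A*. Their canonical transcripts had 1453 to 2755 bases, longer than those of the metallothioneins. Likeness was the Euclidean distance between log2 RPKM centred over the libraries, among 8575 genes of at least 1 RPKM in all 6, and these 5 lay at 0.13 to 0.224, where the median distance was 1.44. *CLN3*, the nearest, was at 19.4, 16.0 and 22.0 RPKM in total RNA and 2.79, 6.57 and 2.01 RPKM in Ago2-IP. The 5 metallothioneins themselves define this profile, so the closeness of a member to it is in part fixed in advance. Of them *MT1X* (0.271), *MT1G* (0.355) and *MT1F* (0.408) lay nearest. *MT2A* (1.25) and *MT1E* (1.42) lay about as far from it as the median gene did. For *MTF1* the nearest were *NFATC3*, *RGMB*, *PSD3*, *PPARA* and *ZNF280B*, at 0.249 to 0.273 against a median of 2.11, all with canonical transcripts of at least 4463 bases.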

How the data were processed

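Gene expression of Hep G2 cells was measured by sequencing 3 total RNA and 3 Ago2-IP libraries. Single reads of 36 bases were aligned by the authors with ELANDv2 (build hg19) and turned into RPKM by CASAVA 1.7, the unit of the deposited values. The gene annotation and the treatment of reads with several matches are not given in the sources used here. Samples were grouped by their titles, and 0 columns were left unmatched. The list has 21891 lines for 21863 symbols, and lines of the 28 repeated symbols were averaged.

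RPKM were used as deposited, and each comparison took genes with RPKM above 0 in the libraries compared. With 1 library per condition no test was made, and genes past 2-fold were counted. Whole reads were inferred as the smallest whole numbers (tolerance 0.004) in the ratio of the RPKM of a gene to the step that 1 read is worth in each library. This succeeded for 1112 of 1500 genes sampled among those above 0 in all libraries (74.1%) and for all 7 members, and 82.1% of the implied lengths lay within 1.5-fold of the canonical transcript. Intervals are exact Poisson for levels, exact binomial for ratios of 2 libraries or 2 genes, and log-normal for scores and differences between genes. Tested on simulated data of 600 genes, whole reads were found for 99.2% and equal to the truth for 95.8% of these. Of 181 intervals built on the simulated reads themselves, not on inferred ones, 93.9% held the 2-fold change put in. Reads without molecular identifiers are not independent molecules, so intervals cover counting error only.

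Gene places, transcripts and 3′UTRs came from GENCODE release 44 on GRCh37, to which 17074 symbols matched directly and 2254 through a RefSeq synonym, while 2535 did not match. Promoter and miRNA sequences came from RefSeq. All 7 members and all other metallothionein symbols are named. Of each gene list the 2 highest and 2 lowest total RNA changes among genes of at least 1 RPKM are named, together with the 5 nearest genes by pattern, except for 1 gene that is not reported here. *SLC30A1* is named in addition as a gene of MTF1, the genes past 2-fold in total RNA because they were few. The members and lists were chosen with earlier results of these data known.

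Alternatives were pseudocounts of 0.1 and 1, scaling of each library by its median or 75th percentile RPKM, a minimum of 1 RPKM, a limit of 1000 bases on the longest transcript, and the first line of each symbol. A limit of 1000 bases on the canonical transcript and medians without *MT1M* were added after seeing the data. The tools were scipy 1.17.1, pandas 2.3.3, numpy 2.4.6 and matplotlib 3.10.9 under Python 3.11.15.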

Additional observations from a re-analysis of the deposited data

How the results depend on the processing

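Of 300 values of single members recomputed, 235 stayed within their counting interval, 59 moved out of it, and 6 that were past 2-fold changed sign. All 59 and all 6 arose under scaling, which also turned the sign of 17 values within 2-fold, among them the *miR-497* ratio of Ago2-IP to total RNA of *MTF1*, from −0.67 to 1.34 and 1.52. Scaling by the median RPKM shifted the log2 ratio of all genes in Ago2-IP by −0.52 with *miR-195* and 0.27 with *miR-497*. Single values and medians here include *MT1M* where it was above 0, although its Ago2-IP values rest on 2 reads per library. A median has no counting interval of its own and was judged against the medians of its members' lower and upper limits. Without *MT1M* every median that involves Ago2-IP stayed within such limits. The median log2 change of the metallothioneins in Ago2-IP with *miR-195*, 1.38, became 0.86 under that scaling and 0.93 under the 75th percentile, and their median score, 1.75, became 1.23 and 1.24. Their median log2 ratio of Ago2-IP to total RNA became −0.84 and −0.55 in non-transfected cells, −0.12 and 0.18 in *miR-195* cells, and −1.54 and −1.36 in *miR-497* cells. The 6 values past 2-fold whose sign changed were, with the 75th percentile, the ratios of Ago2-IP to total RNA of *MT1E* (0.23) and *MT1M* (0.31) in non-transfected cells and of *MT1F* (0.15), *MT1X* (0.15) and *MT1M* (0.20) with *miR-195*, and with the median, that of *MT1M* (0.023) in non-transfected cells. With transcripts limited to 1000 bases at their longest the non-transfected median was −1.97, over fewer members. Total RNA medians of each mimic against non-transfected cells stayed within such limits under every alternative, limits that include the wide ones of *MT1M*. Single total RNA values did move with *miR-497* under scaling by the median RPKM. There *MT2A* (0.19), *MT1E* (0.21) and *MT1G* (0.32) left their own intervals. The direct ratios between the mimics were not recomputed. The share of all genes at least 2-fold higher in Ago2-IP with *miR-195* was 7.91% with a pseudocount of 1, 9.05% and 10.0% under the scalings, 43.0% for genes with a longest transcript of up to 1000 bases and 44.1% for genes with a canonical one. For scores of at least 2 it was 7.96%, 7.98%, 8.08%, 39.3% and 39.9%. The share at least 2-fold lower in Ago2-IP with *miR-497* was 3.69% and 0.613% with pseudocounts of 0.1 and 1, 3.74% and 3.87% under the scalings, 2.27% at 1 RPKM or more, and 15.4% and 12.8% for short transcripts. For scores of 0.5 or less it was 4.39% with a pseudocount of 1, 8.39% and 10.3% under the scalings, 8.42% at 1 RPKM or more, and 32.8% and 29.7% for short transcripts. The causes were not tested. Depth limits *MT1M*, *MT1A* and the *miR-497* Ago2-IP values of *MT1F* and *MT1X*.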
